A study of Homo sapiens with 6 samples.

Results

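The matrix metalloproteinase gene MMP2 and 9 genes for proteins that activate, inhibit or induce it were followed in SH-SY5Y. These cells are an established line from a human neuroblastoma and resemble adrenergic neurons. The rows were picked by gene symbol, and all 10 members were found among the 19610 genes of the count table. MMP2 was chosen because it was lower after SGC707 in these libraries, so its own difference is given as a description, with no test. The other 9 were chosen for their relation to MMP2. RNA was sequenced from 3 libraries treated with SGC707, which blocks the arginine methyltransferase PRMT3, and from 3 with the solvent DMSO. Each group has libraries A, B and C. Both groups carry the genotype label WT. The sources used here do not state the dose or the length of treatment. Whether the lettered libraries come from separate cultures is not said either. The p-values therefore measure the spread of these libraries alone, and that spread may be technical.

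MMP2, also called gelatinase A, is secreted as an inactive proenzyme and cuts gelatin and the collagen of basement membranes. The membrane-anchored protease MMP14 and the inhibitor TIMP2 form a complex at the cell surface that holds the proenzyme, and a neighbouring free MMP14 then removes its propeptide. TIMP2 therefore takes part in activation and also blocks the active enzyme. MMP2 is known for its part in cell migration and invasion, in neuroblastoma among other tumours.

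MMP2 and the membrane-type proteases share a zinc-binding site in the catalytic domain, and its coding sequence is shown because reads from related genes can be mistaken for each other. The sequences were read from GENCODE release 29 transcripts, and capitals mark the codons of the 3 histidines that bind zinc and of the catalytic glutamate. MMP16 holds the same motif, but its stretch is not shown or compared.
MMP2: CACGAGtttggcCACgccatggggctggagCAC
MMP14: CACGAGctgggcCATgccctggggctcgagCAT
MMP15: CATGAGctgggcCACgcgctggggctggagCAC
MMP24: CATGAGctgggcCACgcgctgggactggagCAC
The MMP2 stretch equals those of MMP14 and MMP24 at 27 of 33 bases and that of MMP15 at 28, while MMP15 and MMP24 differ at 1 base. Even so, none of the 45 pairs of members shared a word of 31 bases in their longest coding transcripts.

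Total counts were 11658728 to 12127187 per SGC707 library and 11863696 to 15437602 per DMSO library. Mitochondrially encoded genes took 24.3% to 37.7% of the counts with SGC707 and 46.7% to 60.7% with DMSO, so the libraries were scaled to each other (TMM factors) and levels are given as normalised CPM, the counts relative to the scaled library total. Library SGC707 C stood apart from SGC707 A and B in a trend with GC content, described below for the members. The adrenergic markers HAND2, GATA3 and DBH were present in all libraries, at 63.4 or more normalised CPM with SGC707 and 120.3 or more with DMSO, while TH, another defining marker, was listed at 0 in all 6 libraries. SOX10, PTPRC and CDH5, defining markers of glia, leukocytes and endothelium, were also listed at 0 in all 6. Whether a 0 in this table can stand for a row lost before deposit was not tested. The glial list summed to 46.8 to 62.8 normalised CPM with SGC707 and 13.9 to 70.5 with DMSO, and the epithelial, endothelial and leukocyte lists to at most 3.58 with SGC707 and 2.77 with DMSO.

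MMP2 lies on GRCh38 chromosome 16, 55389700 to 55506691. It stood at 248.0, 233.8 and 247.0 normalised CPM in SGC707 A, B and C, against 468.8, 495.4 and 361.6 in DMSO A, B and C. SGC707 and DMSO did not overlap, the SGC707 libraries lay close together, and DMSO C was the lowest of the DMSO libraries. The mean was 242.9 ± 7.90 normalised CPM with SGC707 and 441.9 ± 70.8 with DMSO (SD, n = 3 each), a log2 change of -0.86 (SE 0.16). It was -0.78 without DMSO B, the highest library, and -0.99 without DMSO C. The counts behind these levels were 3169 to 4104 with SGC707 and 4017 to 5067 with DMSO. The coefficient of variation between libraries was 3.25% with SGC707 and 16.0% with DMSO.

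The size of the MMP2 difference depends on what it is measured against. With scaling by library totals alone, which count the mitochondrial transcripts, the log2 fold change was -0.17, but the median of all tested genes was then 0.69. Relative to that median MMP2 stood at -0.86, and relative to the median of 0.02 under TMM scaling at -0.89. In bulk RNA, fewer cells that express a gene and less of its RNA per cell cannot be told apart. The 15 adrenergic markers summed to 4618 to 4998 normalised CPM with SGC707 and 5585 to 6782 with DMSO, and the 18 markers of the mesenchymal state and fibroblasts to 421.7 to 480.9 with SGC707 and 418.6 to 481.0 with DMSO. Their part in the MMP2 difference was not tested.

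**Figure D1:**
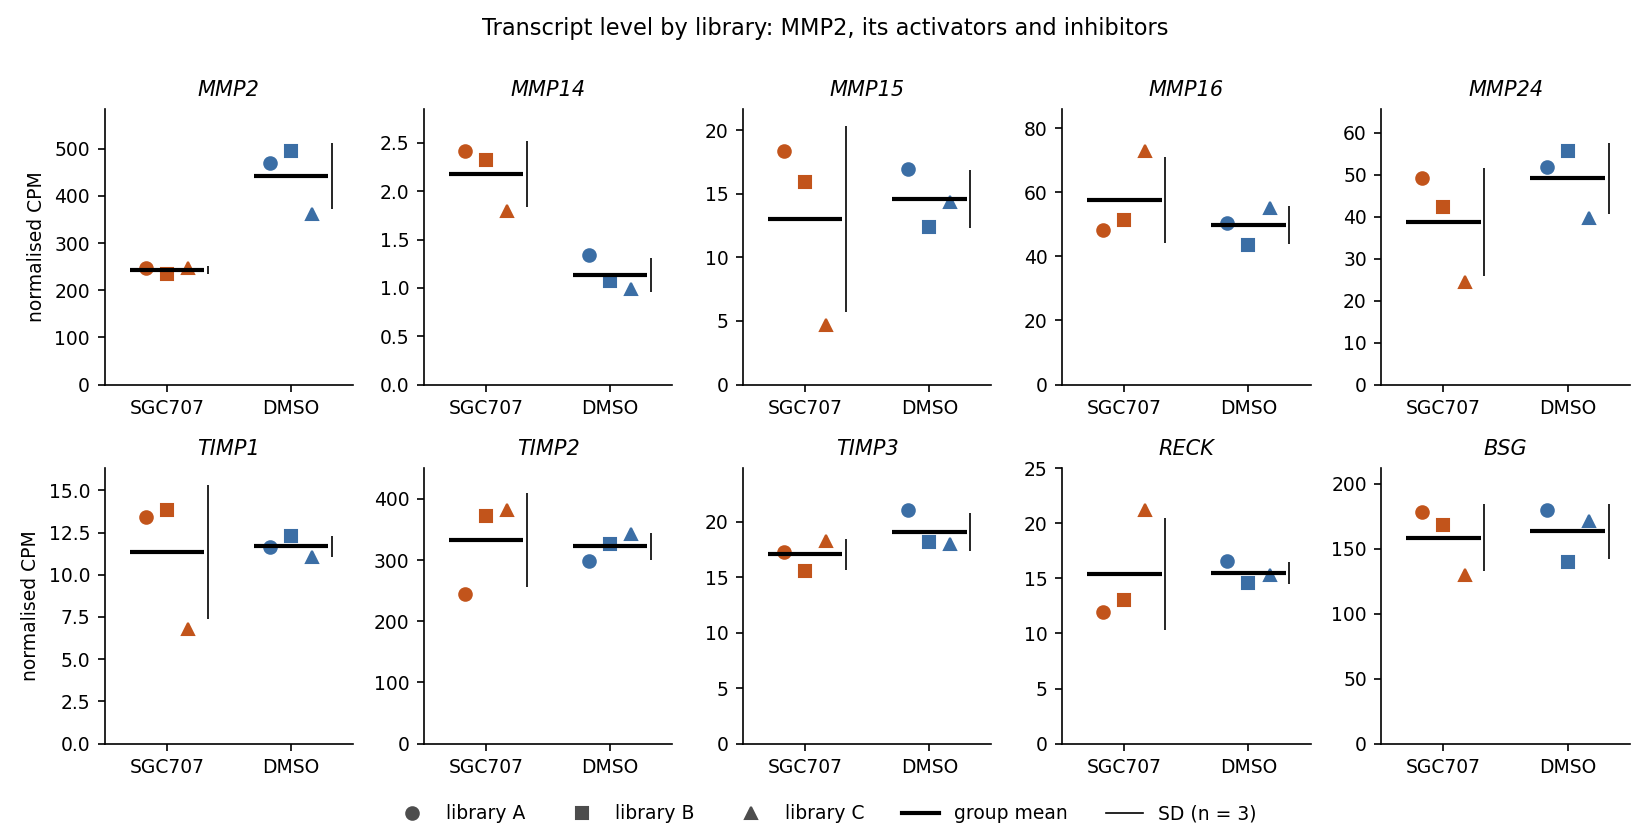
Normalised CPM (vertical axes, each from 0) of the 10 members in SGC707 and DMSO libraries A, B and C, with the group mean as a thick bar and the SD as a thin line (n = 3). The MMP2 libraries lie at 233.8 to 248.0 with SGC707 and 361.6 to 495.4 with DMSO, and MMP14 is the other member whose groups do not overlap. SGC707 C is the lowest of the 6 points for MMP15, MMP24, TIMP1 and BSG and the highest for MMP16, TIMP2 and RECK.

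None of the 9 members other than MMP2 passed the test over all genes. With edgeR's quasi-likelihood test, 3 of 12196 tested genes (0.0246%) had an adjusted p under 0.05, and none of them was among these 9. All 10 members passed the filter on low counts. Groups did not overlap for 1 of the 9 members other than MMP2, namely MMP14, against 20.6% of all tested genes. MMP14 was also the 1 of these 9 with an unadjusted p under 0.05, where 12.8% of all tested genes lay. Of the 9, 3 had a positive and 6 a negative log2 fold change (median -0.04), beside 6440 positive (52.8%), 5756 negative and a median of 0.02 over all tested genes. In other fits, library totals alone called 2 of the 9, MMP14 and MMP16, where 21.4% of all tested genes were called. DESeq2 called 0 of the 9 where 2.47% were, a GC and length correction 0 where 0.517% were, and that correction without SGC707 C 0 where 7.55% were.

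Among the 4 membrane-type proteases followed here, MMP14 (GRCh38 chromosome 14, 22836557 to 22849027), the main activator of the MMP2 proenzyme, had the lowest level and the largest difference. It had 40, 37 and 23 counts in SGC707 A, B and C, against 14, 11 and 11 in DMSO A, B and C. Every SGC707 library lay above every DMSO library, at 1.79 to 2.42 normalised CPM with SGC707 and 0.990 to 1.34 with DMSO. The log2 fold change was 0.94 (SE 0.33, 95% interval 0.17 to 1.72, adjusted p = 0.314, edgeR). The exact Poisson 95% intervals, which cover counting error only, were 14.6 to 34.5 counts in SGC707 C and 7.65 to 23.5 in DMSO A, the closest pair, and they overlap. The difference did not pass the adjustment over all tested genes.

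MMP15 (GRCh38 chromosome 16, 58025566 to 58046901), a membrane-type protease that can also cleave the MMP2 proenzyme, stood at 18.4, 15.9 and 4.68 normalised CPM in SGC707 A, B and C, against 16.98, 12.4 and 14.3 in DMSO A, B and C. SGC707 C was far below the other 5 libraries, which overlapped. The log2 fold change was -0.16 (95% interval -1.19 to 0.87, adjusted p = 0.913, edgeR) and 0.23 (95% interval -0.19 to 0.65, adjusted p = 0.426, edgeR) without SGC707 C.

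MMP16 (GRCh38 chromosome 8, 88032009 to 88328025), a further membrane-type activator, stood at 48.2, 51.4 and 72.9 normalised CPM in SGC707 A, B and C, against 50.5, 43.5 and 55.2 in DMSO A, B and C. SGC707 A and B lay within the DMSO range and SGC707 C above it. The log2 fold change was 0.21 (95% interval -0.26 to 0.67, adjusted p = 0.696, edgeR), and it was -0.0021 without SGC707 C.

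MMP24 (GRCh38 chromosome 20, 35226654 to 35277000), the membrane-type protease known from the nervous system, stood at 49.4, 42.4 and 24.5 normalised CPM in SGC707 A, B and C, against 52.0, 55.7 and 39.7 in DMSO A, B and C. Both groups overlapped, and SGC707 C was again the lowest library. Its log2 fold change was -0.34 (95% interval -0.97 to 0.29, adjusted p = 0.632, edgeR), and -0.10 without SGC707 C. Of the exon bases of MMP24, 18.1% also belong to MMP24OS on the opposite strand, which stood at a mean of 7.14 normalised CPM with SGC707 and 9.01 with DMSO. The sources used here give no strand setting for the counting, so reads of the overlap could count for either gene.

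The 3 TIMP proteins block the active site of metalloproteinases. TIMP2 (GRCh38 chromosome 17, 78852977 to 78925387), the partner of MMP14 in activation, stood at 243.9, 371.4 and 381.9 normalised CPM in SGC707 A, B and C, against 299.2, 325.5 and 342.4 in DMSO A, B and C. Libraries of SGC707 lay on both sides of the DMSO libraries, with SGC707 A the lowest of all, and the log2 fold change was 0.04 (95% interval -0.40 to 0.49, adjusted p = 0.947, edgeR).

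TIMP1 (GRCh38 chromosome X, 47582313 to 47586789), which is known to bind the proenzyme of MMP9, stood at 13.4, 13.8 and 6.78 normalised CPM in SGC707 A, B and C, against 11.6, 12.3 and 11.1 in DMSO A, B and C. SGC707 A and B lay above and SGC707 C below the narrow DMSO range, with a log2 fold change of -0.04 (95% interval -0.71 to 0.63, adjusted p = 0.970, edgeR), and 0.22 (adjusted p = 0.371, edgeR) without SGC707 C. TIMP1 lies within the body of the synapsin gene SYN1 on the opposite strand but shares no exon base with it.

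TIMP3 (GRCh38 chromosome 22, 32801701 to 32863043), the inhibitor that stays bound to the matrix, stood at 17.3, 15.6 and 18.3 normalised CPM in SGC707 A, B and C, against 21.1, 18.2 and 18.0 in DMSO A, B and C. Only SGC707 C reached into the DMSO range, for a log2 fold change of -0.16 (95% interval -0.57 to 0.25, adjusted p = 0.735, edgeR).

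RECK (GRCh38 chromosome 9, 36036433 to 36124451), a membrane-anchored inhibitor of MMP2 and MMP14, stood at 11.96, 13.02 and 21.2 normalised CPM in SGC707 A, B and C, against 16.6, 14.6 and 15.3 in DMSO A, B and C. SGC707 A and B lay below the DMSO range and SGC707 C above it, and the group means were 15.4 ± 5.05 normalised CPM with SGC707 and 15.5 ± 1.03 with DMSO (SD, n = 3 each). The log2 fold change was -0.01 (95% interval -0.60 to 0.58, adjusted p = 0.991, edgeR), and -0.31 (95% interval -0.67 to 0.04, adjusted p = 0.212, edgeR) without SGC707 C.

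BSG (GRCh38 chromosome 19, 571277 to 583493) encodes basigin, a surface glycoprotein known for inducing metalloproteinases in neighbouring cells and a partner of lactate transporters. It stood at 178.0, 168.1 and 129.7 normalised CPM in SGC707 A, B and C, against 179.8, 139.5 and 171.1 in DMSO A, B and C. Both groups overlapped almost fully, and the log2 fold change was -0.04 (95% interval -0.45 to 0.36, adjusted p = 0.941, edgeR).

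**Figure D2:**
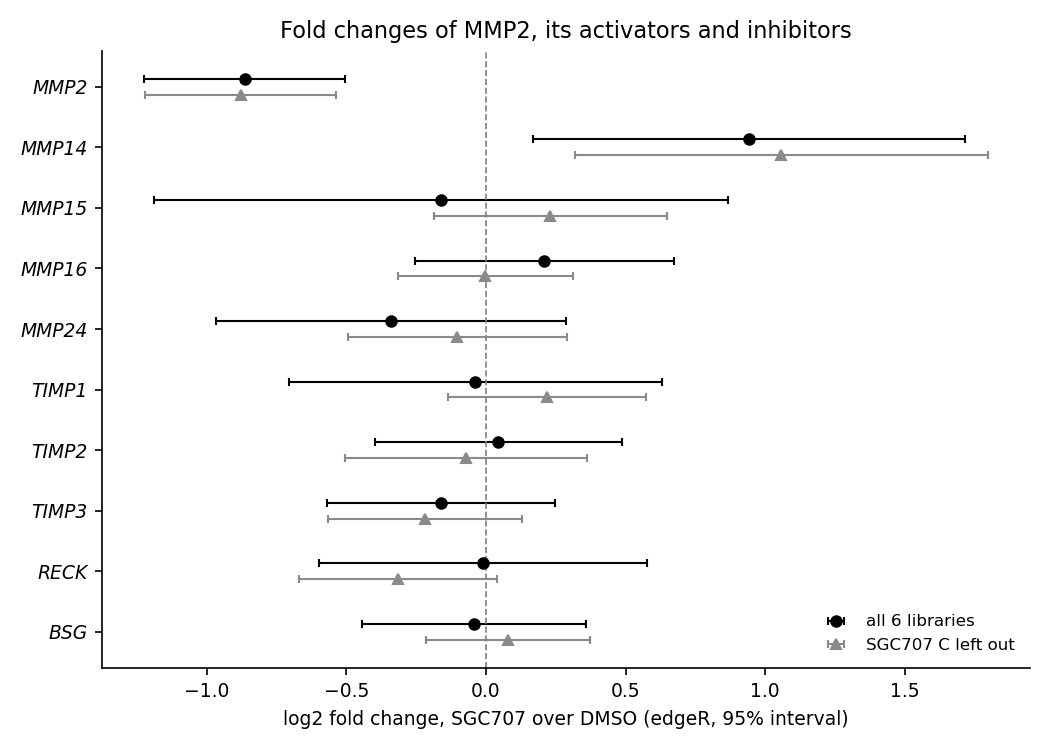
Log2 fold change of each member, SGC707 over DMSO, with its 95% interval from edgeR (horizontal axis), for all 6 libraries (black circles) and with SGC707 C left out (grey triangles). MMP2, chosen for its difference, stands at -0.86 and -0.88, MMP14 at 0.94 and 1.06, and the intervals of the other 8 members cross 0 in both fits.

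The 8 members whose groups overlapped had log2 fold changes of -0.34 to 0.21 and edgeR adjusted p of 0.632 to 0.991. Their 95% intervals all include 0, and the widest was that of MMP15, from -1.19 to 0.87. Without SGC707 C, 4 members other than MMP2 had groups that did not overlap: MMP14 and TIMP1 higher with SGC707, TIMP3 and RECK lower. The same was true of 50.4% of all tested genes, so this count is near the background. The fit without SGC707 C called 0 of the 9 members other than MMP2, where 9.26% of all tested genes were called.

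The shift of SGC707 C followed the GC content of the members' transcripts. The difference of SGC707 C from the mean of SGC707 A and B, in log2(normalised CPM + 0.5), was -1.77 for MMP15 (66.0% GC), -0.41 for BSG (62.7%), -0.89 for MMP24 (60.6%) and -0.96 for TIMP1 (57.9%). It was 0.74 for RECK (44.2%) and 0.55 for MMP16 (36.4%). MMP2, with 56.5% GC, lay between these at 0.04, with alike levels in all 3 SGC707 libraries. Across the 10 members Spearman's rho with GC content was -0.89, and across 12118 nuclear genes it was -0.77. The same difference within the DMSO group had a rho of -0.26 across the members and -0.25 across those genes. The points share their libraries, so these values are a description. A correction for GC content and length gave log2 fold changes of -0.77 for MMP2, 1.04 for MMP14 (adjusted p = 0.0897, edgeR), -0.11 for MMP15 and -0.24 for MMP24, and none of the 9 members other than MMP2 passed.

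**Figure D3:**
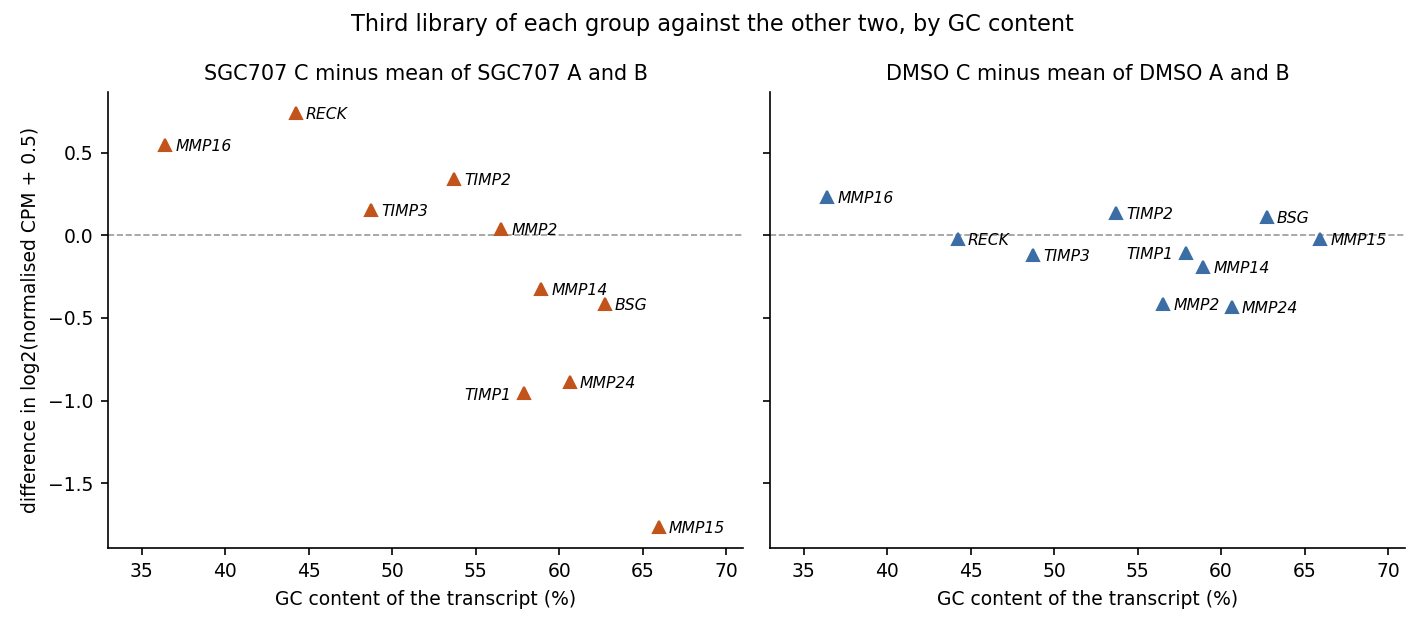
Difference of library C from the mean of libraries A and B of its group, in log2(normalised CPM + 0.5) (vertical axis), against the GC content of the longest coding transcript (horizontal axis, %), for SGC707 (left) and DMSO (right), 1 point per member. With SGC707 the values run from 0.74 for RECK to -1.77 for MMP15, and with DMSO from 0.23 for MMP16 to -0.43 for MMP24.

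Set side by side per length, as normalised CPM per kilobase of the longest coding transcript, 3 members stood well above the rest in both groups. With SGC707, TIMP2 had 91.0 ± 21.0, BSG 80.2 ± 12.9 and MMP2 64.9 ± 2.11 normalised CPM per kilobase (SD, n = 3), and the libraries of neighbours in this order overlapped. With DMSO, MMP2 came first at 118.1 ± 18.9 normalised CPM per kilobase, with no overlap with TIMP2 at 88.3 ± 5.96, which overlapped with BSG at 82.7 ± 10.7 (SD, n = 3). A gap followed in both groups. TIMP1 and MMP24 came next at 10.4 and 8.78 with SGC707 and at 10.7 and 11.1 with DMSO, and their libraries overlapped in each group. MMP16, TIMP3, RECK and MMP15 lay at 3.06 to 4.98 with SGC707 and 3.17 to 4.30 with DMSO, in that order with SGC707, where all neighbours but MMP16 and TIMP3 overlapped. MMP14 was the lowest member in every library, at 0.584 ± 0.0904 with SGC707 and 0.304 ± 0.0481 with DMSO (SD, n = 3).

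Summed per kilobase, the 4 membrane-type proteases came to 20.3, 18.4 and 13.4 in SGC707 A, B and C, against 20.5, 19.6 and 17.4 in DMSO A, B and C. MMP24 made up 41.3% to 55.0% of that sum with SGC707 and 51.7% to 64.4% with DMSO. MMP14, the best known activator, made up 3.19% to 3.57% with SGC707 and 1.47% to 1.75% with DMSO. TIMP2 made up 80.7% to 91.1% of the sum of the 3 TIMP genes with SGC707 and 84.3% to 87.0% with DMSO.

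Ratios within a library do not depend on the scaling between libraries. The ratio of MMP14 to TIMP2 in counts per kilobase was 0.00970, 0.00613 and 0.00459 in SGC707 A, B and C, against 0.00437, 0.00323 and 0.00283 in DMSO A, B and C. All SGC707 values lay above all DMSO values, though SGC707 C and DMSO A were close. The mean log2 ratio was -7.27 ± 0.54 with SGC707 and -8.19 ± 0.32 with DMSO, a difference of 0.92 (SD, n = 3 each, exact permutation test, two-sided p = 0.1, the lowest possible with 3 libraries a group). The difference was 0.63 without SGC707 A and 1.17 without SGC707 C.

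As a description, the ratio of MMP2 to TIMP2 was 0.992, 0.615 and 0.631 in SGC707 A, B and C, against 1.53, 1.49 and 1.03 in DMSO A, B and C. Per kilobase of the longest coding transcript, MMP2 exceeded TIMP2 in all 3 DMSO libraries and in none of the SGC707 libraries, but SGC707 A and DMSO C were almost equal. The side of 1 depends on the lengths used. In counts not divided by length, SGC707 A had 4104 for MMP2 and 4037 for TIMP2. The ratio of MMP2 to MMP14 was 102.4, 100.2 and 137.5 in SGC707 A, B and C, against 350.2, 459.5 and 364.3 in DMSO A, B and C.

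**Figure D4:**
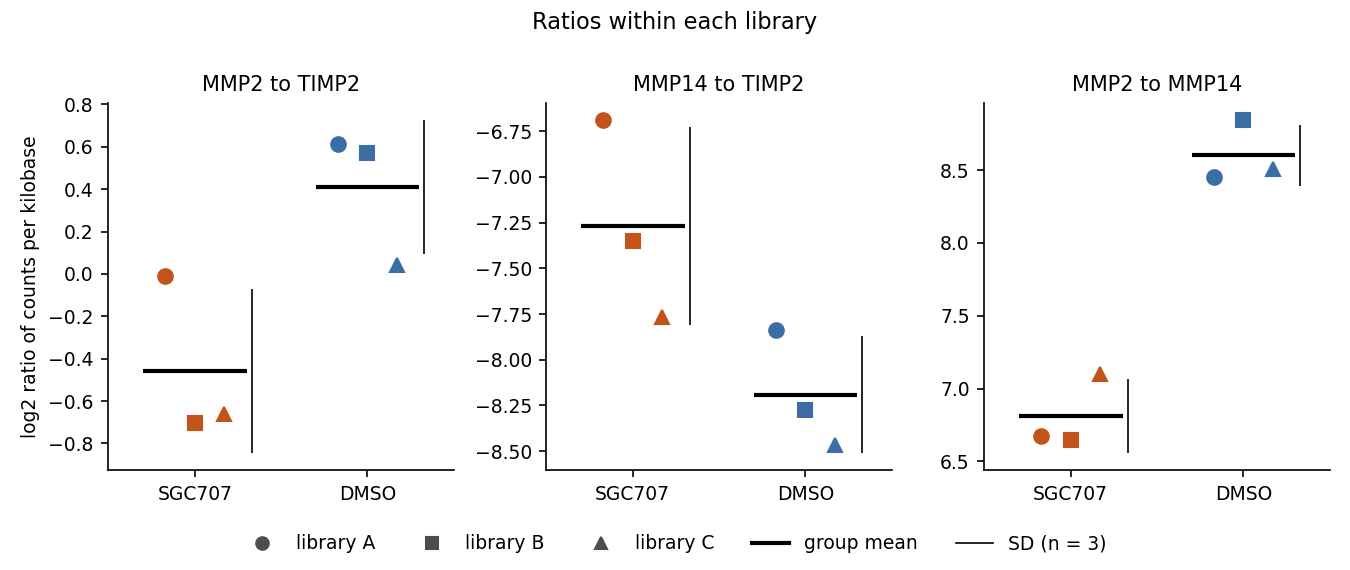
Log2 ratio of counts per kilobase within each library (vertical axes, which differ in range), for SGC707 and DMSO libraries A, B and C, with the group mean as a thick bar and the SD as a thin line (n = 3). The groups do not overlap in any of the panels: MMP2 to TIMP2 averages -0.46 with SGC707 and 0.41 with DMSO, MMP14 to TIMP2 -7.27 with SGC707 and -8.19 with DMSO, and MMP2 to MMP14 6.81 with SGC707 and 8.60 with DMSO.

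Other genes of the same system were read from 8 lists with 125 genes, of which 80 were tested. None passed over all genes (edgeR, lowest adjusted p = 0.266), beside the 0.0246% of all tested genes called. Among them, 2 higher and 5 lower genes had an unadjusted p under 0.05, together 8.75% of those tested, against 5.62% higher, 7.13% lower and 12.8% in all over the whole table. DESeq2 also called none of them.

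Most of the rest of the metalloproteinase family had few or no counts. Of 18 other MMP genes and TIMP4, 11 had 0 counts in all 6 libraries and 2 were tested with a list median of -0.13. As for TH, whether such a 0 can stand for a lost row was not tested. The 2 tested genes, MMP11 and MMP17, had means of 1.57 and 0.877 normalised CPM per kilobase over the 6 libraries, above the group means of MMP14. MMP11, the protease stromelysin-3, stood at 3.49 ± 1.85 normalised CPM with SGC707 and 3.68 ± 0.779 with DMSO (SD, n = 3), a log2 change of -0.07 (adjusted p = 0.963, edgeR). MMP17, a membrane-type protease held by a lipid anchor, stood at 1.97 ± 0.966 normalised CPM with SGC707 and 2.26 ± 0.0744 with DMSO (SD, n = 3), a log2 change of -0.18 (adjusted p = 0.895, edgeR). MMP9, the other gelatinase, had 0 counts in every SGC707 library and in DMSO A and C, and 2 counts in DMSO B; it is named because of these values. The limit set by a count of 0 is 3 counts, which is 0.181 to 0.234 normalised CPM in the SGC707 libraries and 0.286 and 0.270 in DMSO A and C.

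The matrix proteins that gelatinases cut, or that surround such substrates, had log2 changes above 0 for 8 and below 0 for 15 of 23 tested genes (30 listed), with a median of -0.10. None was higher and 4 were lower at an unadjusted p under 0.05. The SGC707 libraries lay all below the DMSO libraries for 5 of the 23, against 9.78% of all tested genes in that direction, and all above for 1, against 10.8%. In the other lists they lay all below for 2 ADAM or ADAMTS genes, and all above for 1 gene of the plasminogen system and 1 transcription factor gene. SPARC, a collagen-binding matrix protein, stood at 46.6 to 49.96 normalised CPM with SGC707 and 60.4 to 72.8 with DMSO, a log2 change of -0.50 (SE 0.15, adjusted p = 0.266, edgeR). NID1, the basement membrane linker nidogen-1, stood at 41.7 to 44.2 normalised CPM with SGC707 and 51.0 to 63.7 with DMSO, a log2 change of -0.44 (adjusted p = 0.308, edgeR). As for MMP2, the groups did not overlap for either gene. LAMB1, a laminin chain and the member of this list with the highest level per kilobase, had a log2 fold change of -0.24 (adjusted p = 0.505, edgeR).

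Surface partners and clearance receptors of MMP2 and MMP14 had log2 changes above 0 for 6 and below 0 for 4 of 10 tested genes (14 listed), with a median of 0.15 and 1 higher at an unadjusted p under 0.05. That one was the heparan sulfate proteoglycan gene SDC1, at 24.5 to 61.0 normalised CPM with SGC707 and 22.3 to 25.03 with DMSO, a log2 change of 0.94 (SE 0.31, adjusted p = 0.2996, edgeR). The lowest SGC707 library lay within the DMSO range. Its relative SDC4 had a log2 fold change of 0.60 (adjusted p = 0.462, edgeR), and the integrin chain gene ITGB1 0.12 (adjusted p = 0.814, edgeR). SDC2 (log2 fold change 0.19, adjusted p = 0.936, edgeR) varied widely within both groups, at 22.2 to 104.6 normalised CPM with SGC707 and 20.5 to 86.3 with DMSO.

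The proprotein convertases include enzymes that remove the propeptide of membrane-type metalloproteinases. They had log2 changes above 0 for 2 and below 0 for 4 of 6 tested genes (8 listed), with a median of -0.07 and none at an unadjusted p under 0.05. PCSK4 stood at -0.59 (adjusted p = 0.621, edgeR) and PCSK6 at -0.26 (adjusted p = 0.776, edgeR). MBTPS1 and PCSK7, the members with the highest levels per kilobase, stood at 0.07 and -0.05 (adjusted p = 0.878 and 0.941, edgeR).

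ADAM and ADAMTS proteases, relatives that shed surface proteins or cut proteoglycans, had log2 changes above 0 for 11 and below 0 for 6 of 17 tested genes (20 listed), with a median of 0.08 and 1 lower at an unadjusted p under 0.05. That one was ADAM12, at 113.6 ± 17.1 normalised CPM with SGC707 and 151.2 ± 13.9 with DMSO (SD, n = 3), a log2 change of -0.41 (adjusted p = 0.347, edgeR). ADAMTS3 stood at -1.34 (adjusted p = 0.397, edgeR) from a mean of 0.414 normalised CPM with SGC707 and 1.07 with DMSO. ADAM17 and ADAM23, with the highest levels per kilobase, stood at 0.08 and -0.29 (adjusted p = 0.876 and 0.494, edgeR).

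The plasminogen system, a second route of matrix breakdown, had log2 changes above 0 for 2 and below 0 for 2 of 4 tested genes (8 listed), with a median of 0.12. PLGRKT, a plasminogen receptor, stood at 0.34 (adjusted p = 0.558, edgeR) and PLAUR, the urokinase receptor, at -0.28 (adjusted p = 0.645, edgeR). Among lactate transporters and other partners of basigin, 2 were positive and 3 negative of 5 tested of 8, with a median of -0.01. The lactate transporter gene SLC16A1 stood at 0.31 (adjusted p = 0.499, edgeR), and the cyclophilin genes PPIA and PPIB at 0.23 and -0.01 (adjusted p = 0.557 and 0.992, edgeR). PPIA has many processed pseudogenes, so its counts are uncertain. Neither list had a gene at an unadjusted p under 0.05.

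Transcription factors reported at the MMP2 promoter had log2 changes above 0 for 4 and below 0 for 9 of 13 tested genes (18 listed), with a median of -0.09 and 1 higher at an unadjusted p under 0.05. That one was ETS1, at 29.5 ± 4.21 normalised CPM with SGC707 and 21.7 ± 1.48 with DMSO (SD, n = 3), a log2 change of 0.44 (adjusted p = 0.359, edgeR). TWIST1 stood at 0.23 and YBX1 at -0.23 (adjusted p = 0.557 and 0.561, edgeR).

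The genes whose pattern over the 6 libraries was most like that of MMP2 were sought among 10164 tested genes with a mean of at least 5 normalised CPM, by Pearson's r of log2(normalised CPM + 0.5). The 5 closest were the magnesium transporter gene SLC41A1, NPIPB3, and the transcription factor genes GATA3, HAND1 and SIX3, with r from 0.995 to 0.998. GATA3 stood at 365.5, 379.4 and 368.9 normalised CPM in SGC707 A, B and C, against 890.1, 937.0 and 627.3 in DMSO A, B and C. HAND1 stood at 80.7, 80.6 and 80.7 normalised CPM in SGC707 A, B and C, against 145.4, 159.7 and 122.3 in DMSO A, B and C. Like MMP2, both were even with SGC707 and lowest of the DMSO libraries in DMSO C. An r of at least 0.9 was reached by 478 genes, and the points share their libraries and the difference MMP2 was chosen for, so the likeness is a description. NPIPB3 belongs to a family of near-identical copies, and its counts are uncertain. Among the 8 other members with a mean of at least 5 normalised CPM, r was 0.70 for TIMP3, 0.58 for MMP24 and -0.50 for MMP16, and between -0.12 and 0.24 for the other 5.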

How the data were processed

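RNA of 6 SH-SY5Y libraries was DNase-treated, its mRNA isolated and sequenced as paired reads, per the labels' protocols. The authors deposited whole-number read counts per gene symbol, not scaled between libraries. Per the submitters' processing notes, HISAT2, StringTie and GRCh38 were used. The sources used here do not give tool versions, the gene annotation, a strand setting or how shared reads were handled.

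The test of SGC707 over DMSO was edgeR's quasi-likelihood test (edgeR 4.0.16, R 4.3.3) on the counts, with filterByExpr, TMM scaling, robust dispersions and no covariate, and Benjamini-Hochberg adjustment over 12196 genes and a threshold of 0.05. Each standard error is the log2 change over the root of its F. The procedure was run on simulated counts that held no GC trend and no library set apart like SGC707 C, so that run does not cover these features of the data. Libraries of a group all differed by more than sampling noise (lowest chi-square 11.9 per degree of freedom). Coordinates, transcript length and GC content came from GENCODE release 29, with 19294 symbols matched directly, 296 by synonym and 20 unmatched.

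The members and lists were chosen with earlier results of these data known. Named genes are all members, the 2 with the smallest p and the 2 with the highest level per kilobase of each list, any list gene past the threshold, the 5 most like MMP2 (mean of at least 5 normalised CPM, no clone-based symbol), and defining markers. Alternatives were DESeq2 1.42.0, limma-voom (limma 3.58.1), RLE factors, library totals, no filter, a filter at 1 CPM in 3 libraries with mean counts from 50, each library left out, the replicate letter as a block, a GC and length correction (lowess, span 0.3, mean counts from 20) with and without that block, and no mitochondrial genes. The correction without SGC707 C was added after seeing the data. Ratios were compared with exact permutation tests in scipy 1.17.1, and figures were drawn with matplotlib 3.10.9.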

Additional observations from a re-analysis of the deposited data

How the results depend on the processing

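The count of genes past the threshold, 3 on all libraries, was 2605 with library totals only, 6 with no filter, 301 with DESeq2, 0 with the replicate block, 63 after the GC and length correction and 935 with that correction without SGC707 C, and 0 to 1147 with 1 library left out (0 without SGC707 B, and likewise without DMSO A or DMSO B, 1147 without SGC707 C). Among the 9 members other than MMP2 the count was 2 with library totals only (MMP14 and MMP16, with the median of all genes at 0.69) and 0 in every other setting. MMP2, chosen for its difference in these libraries, is left out of this count. The count of list genes was 12 with library totals only, 1 (SDC1) after the correction, 3 with it without SGC707 C, and 0 to 6 with 1 library left out. Other settings kept 0 list genes.

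With library totals only the log2 fold changes of MMP15 (0.57), MMP24 (0.40), TIMP1 (0.69), TIMP3 (0.50), RECK (0.61) and BSG (0.63) were positive, as were those of MMP17 (0.54), MMP11 (0.66), PCSK4 (0.12), PCSK6 (0.39), PCSK7 (0.66), SPARC (0.18), NID1 (0.25), LAMB1 (0.43), ADAM12 (0.25), ADAM23 (0.36), PLAUR (0.42), PPIB (0.69) and YBX1 (0.43). BSG turned to 0.088 and PCSK7 to 0.038 after the correction (0.066 and 0.037 with the replicate block). With the correction and without SGC707 C, MMP15 (0.033), TIMP2 (-0.13), MMP11 (0.042), PCSK7 (0.012) and SDC2 (-0.80) changed sign. With 1 library left out, signs changed within -0.49 to 0.23 for MMP15, -0.0021 to 0.32 for MMP16, -0.21 to 0.22 for TIMP1, -0.072 to 0.23 for TIMP2, -0.31 to 0.14 for RECK, -0.15 to 0.078 for BSG, -0.43 to 0.15 for MMP17, -0.48 to 0.27 for MMP11, -2.77e-04 to 0.13 for MBTPS1, -0.21 to 0.12 for PCSK7, -0.076 to 0.24 for ITGB1, -0.88 to 1.09 for SDC2, -0.066 to 0.15 for ADAM17 and -0.075 to 0.093 for PPIB. The causes were not tested. MMP2 (-0.99 to -0.17) and MMP14 (0.85 to 1.63) kept their sign in every setting that tested them. MMP14, with a mean count too low for the stricter filter, has no value there.

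Deviations of same-lettered libraries correlated weakly, at 0.08 for A, -0.02 for B and 0.10 for C. SGC707 A and C each correlated best with the DMSO library of the same letter, and SGC707 B correlated better with DMSO A (0.10) than with DMSO B. With 3 libraries a group, these values cannot settle whether the letters pair the libraries. With the replicate block MMP14 stood at 0.94 and its log2 ratio to TIMP2 differed by 0.92 (two-sided exact sign-flip p = 0.25, the smallest that 3 pairs allow). The ratio difference was 0.89 with 0.5 added to each count and 0.63 to 1.17 with 1 library left out.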
